A study of Mus musculus with 6 samples.

Results

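Translation factors are the proteins that bring an mRNA, the initiator tRNA and the ribosomal subunits together, move the ribosome along the message and release the finished chain. Their transcripts were followed in mouse erythroblasts, the nucleated precursors of red cells, with and without a transgene for a mutant ribosomal protein. The members are the array probe sets annotated with 1 gene symbol that begins with Eif or Eef, or that is Etf1, Gspt1, Pabpc1 or Abce1. The eIF2 alpha kinases and the sex-linked Eif2s3x and Eif2s3y were left out. This gave 118 of 22626 probe sets and 51 of 12393 genes. By role they were 13 genes of the cap-binding eIF4F group (35 probe sets), 11 of eIF3 (26), 5 of eIF2 and eIF2B (12), 7 of start codon choice and subunit joining (17), 12 of elongation (18) and 3 of release and recycling (10).

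The comparison was of 3 mutant RPS19 samples, from mice with an RPS19R62W transgene, with 3 wild type samples. RPS19 is a protein of the small ribosomal subunit, and the study's title refers to Diamond-Blackfan anaemia, a disease linked to mutations of ribosomal protein genes, RPS19 among them. All 6 samples were of the FVB/N strain and consisted of bone marrow cells sorted for CD71, the transferrin receptor, with total RNA read on 1 Affymetrix array each. The sources used here do not give the promoter of the transgene or the age and sex of the mice. Whether each sample came from its own animal is not stated either, so a p-value here speaks only for the spread among these 6 samples, part or all of which may be technical. The description tags of the 3 wild type samples differ only in their leading array code, whereas those of the 3 mutant samples also differ in the code that follows.

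Initiation begins when eIF4E binds the cap at the 5' end of an mRNA. Together with the scaffold eIF4G and the helicase eIF4A it forms eIF4F, which recruits the small ribosomal subunit carrying eIF3 and the eIF2 complex with the initiator tRNA. After the start codon is found the large subunit joins, eEF1A delivers aminoacyl-tRNAs and eEF2 moves the ribosome, until eRF1 and eRF3 release the chain at a stop codon and ABCE1 splits the ribosome. Erythroblasts translate very large amounts of globin, and a shortage of small subunits lowers the number of ribosomes that these factors can load.

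The arrays of the groups differed in several measures beyond these genes, and the part of each in the results below was not tested. The spiked polyadenylated controls read 11.58, 13.43 and 13.47 on the mutant arrays, against 8.77, 8.75 and 8.74 on the wild type arrays (mean log2 signal, exact permutation p = 0.1, the smallest that 3 arrays against 3 can give). The gap between 3' and 5' probe sets, which widens as RNA is degraded, was 1.70 ± 0.16 in mutant and 1.31 ± 0.054 in wild type samples for actin, and 0.27 ± 0.032 in mutant and -0.066 ± 0.019 in wild type samples for Gapdh (log2, SD, n = 3 each, exact permutation p = 0.1 for both). For the transferrin receptor it was 1.75 ± 0.13 in mutant and 1.72 ± 0.055 in wild type samples (n = 3 each, exact permutation p = 0.8). Of 13 erythroid markers 9 were measured, and 0 were called by limma, beside 1.52% of all genes. A count of 0 among so few genes cannot show that erythroid content was equal. At an unadjusted p under 0.05, 1 of the 9 was lower, beside 8.34% of all genes. The mean of these markers ran from 9.30 to 10.01 over the mutant arrays and 9.83 to 9.90 over the wild type arrays. Tfrc, which encodes CD71, read 11.45 to 11.99 on the mutant and 12.12 to 12.15 on the wild type arrays. The 1 probe set annotated to the alpha globin gene Hba-a1 alone was dim, at 2.87 to 3.12 in mutant and 3.06 to 3.27 in wild type samples, whereas the 3 shared by Hba-a1 and Hba-a2 read 12.81 to 14.20 in mutant and 13.66 to 14.07 in wild type samples. Markers of other marrow cells were read on the same arrays. The 8 measured B cell markers of 9 averaged 5.98 to 7.88 over the mutant and 6.002 to 6.008 over the wild type arrays. The 8 neutrophil markers averaged 10.18 to 11.94 in mutant and 11.14 to 11.27 in wild type samples, and the 7 monocyte and macrophage markers averaged 6.56 to 7.29 in mutant and 7.21 to 7.35 in wild type samples. The 4 mast cell, basophil and eosinophil markers averaged 6.04 to 8.95 over the mutant and 7.36 to 7.54 over the wild type arrays. The 5 megakaryocyte markers averaged 6.05 to 6.73 in mutant and 5.62 to 5.68 in wild type samples (Vwf was called higher). The 3 measured T cell markers of 4 averaged 4.19 to 4.22 in mutant and 4.46 to 4.59 in wild type samples, and the 3 measured plasma cell markers of 4 averaged 4.46 to 5.63 in mutant and 5.75 to 5.88 in wild type samples (Jchain was called lower). At an unadjusted p under 0.05 by limma, 3 B cell markers were higher and 3 T cell markers lower. Of all genes 9.17% were higher and 8.34% lower at that threshold. Among the other marrow markers only Vwf (higher) and Jchain (lower) passed it. Mutant replicate 3 alone read 8.34 for the Y-linked Eif2s3y, against 2.23 to 2.45 on the other arrays. In such bulk samples fewer cells of a type and less RNA per cell cannot be told apart.

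The translation factor probe sets that passed an adjusted p under 0.05 by limma were all lower in mutant samples. They were 9 probe sets of 8 genes: Eif4e and Eif4a1 of the cap complex, the poly(A)-binding protein gene Pabpc1, the eIF3 subunits Eif3a (2 probe sets) and Eif3m, the eIF2 beta subunit Eif2s2, the synthetase-complex protein gene Eef1e1 and the release factor Etf1. Their levels in mutant samples were 0.523 to 0.696 times those in wild type samples. By limma, 9 of 118 probe sets (7.63%) passed an adjusted p under 0.05 as lower, beside 1.39% of all probe sets, and 0 passed as higher, beside 0.941% (11 were higher at an unadjusted p under 0.05). In both directions together 2.33% of all probe sets passed. Signal depends on the probes as well as on the transcript, and 97 of the 118 probe sets read above the median of all probe sets. Of those 97, 9.28% passed, all as lower, beside 3.64% of all probe sets above that median (2.14% as lower and 1.5% as higher). The count depended on single arrays. By limma 0 factor probe sets passed as lower when any 1 of the 3 wild type arrays was left out (0.106% to 0.146% of all probe sets did), 4 without mutant replicate 2 (0.548% of all) and 18 without mutant replicate 1 (5.27% of all), so the whole table moved in the same direction.

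Beyond the calls, 37 of the 118 probe sets (31.4%) were lower in mutant samples at an unadjusted p under 0.05, where 10.5% of all probe sets were, and 11 (9.32%) were higher, where 8.64% of all were. The 3 mutant and 3 wild type values did not overlap for 57 of the 118, with the mutant values below the wild type values for 38 and above for 19. The 38 and 19 made up 32.2% and 16.1% of the members. For all probe sets 26.1% did not overlap, 14.7% with the mutant values below and 11.4% with them above. Taking the brightest probe set for each gene, 6 of 51 genes passed as lower (0.654% of all 12393 genes did) and 0 as higher (0.863% of all genes, with 6 factor genes higher at an unadjusted p under 0.05). In both directions together 1.52% of all genes passed. The groups did not overlap for 30 of the 51 genes, with 19 (37.3%) lower and 11 (21.6%) higher in mutant samples. Of all genes 24.7% did not overlap, 12.7% as lower and 12% as higher. The median difference over the 51 genes was -0.05 on the log2 scale, mutant minus wild type, beside -0.0044 over all genes. It was -0.12 without mutant replicate 1, -0.0205 without mutant replicate 2 and -0.0023 with repeated quantile normalisation. When p-values were adjusted over 12393 genes rather than probe sets, 1 factor, Eif4e, passed (0.331% of all genes did). With a gene's probe sets averaged, 0 factors passed (0.379% of all genes did), while 14 were lower and 4 higher at an unadjusted p under 0.05.

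**Figure D1:**
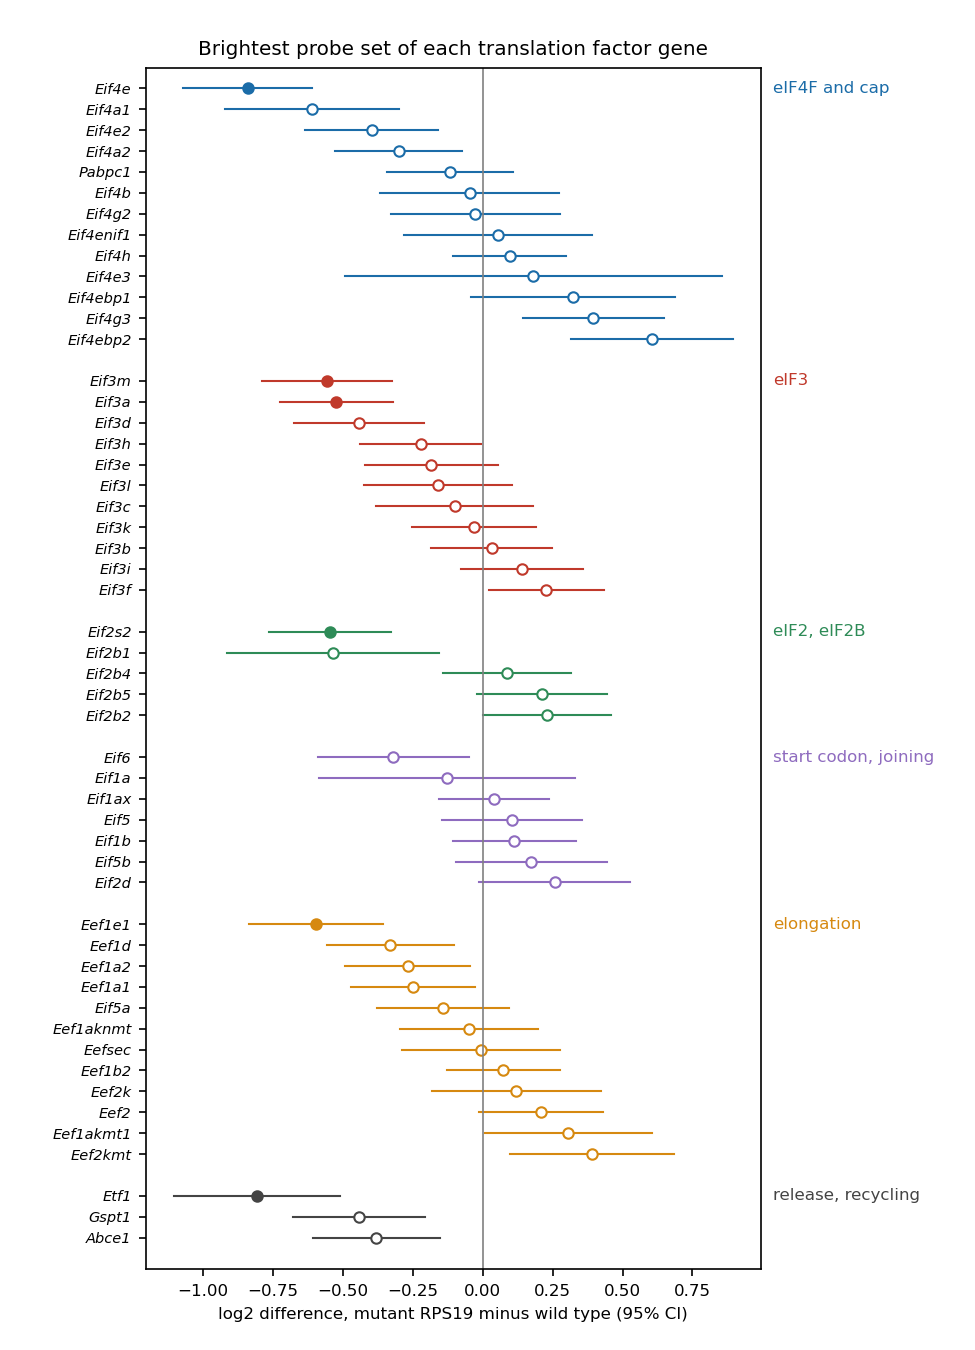
Log2 difference (mutant RPS19 minus wild type, horizontal axis) of the brightest probe set of each of the 51 translation factor genes, grouped by role, with 95% confidence intervals from limma. Filled points mark the 6 genes called, all of them left of 0, from Eif4e at -0.84 to Eif3a at -0.52, and the open point farthest right is Eif4ebp2 at 0.60.

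Eif4e encodes the protein that binds the mRNA cap and gives eIF4F its hold on the message. Its brightest probe set read 9.19, 9.18 and 9.38 on the mutant arrays, against 10.15, 10.10 and 10.02 on the wild type arrays (log2 signal). Every mutant value lay below every wild type value. The difference was -0.84 ± 0.099 (log2, SE), a level in mutant samples 0.559 times that in wild type samples (adjusted p = 0.011, limma over probe sets). The second probe set of Eif4e read 8.35, 8.30 and 8.48 on the mutant arrays and 8.72, 8.63 and 8.67 on the wild type arrays, a difference of -0.30 that did not pass (adjusted p = 0.15). The dimmest differed by -0.09 (adjusted p = 0.73). All 3 probe sets of the gene thus had lower means in mutant samples, by unequal amounts. Over the alternative settings the brightest probe set, or the gene mean, lay between -0.90 and -0.41 and kept its sign in 15 of 15, with an adjusted p between 0.0014 and 0.11.

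Eif4e is known as a target of the transcription factor Myc, which binds the E-box CACGTG, a motif that reads the same on both strands. The 250 bases before the second of its annotated starts hold the motif at 2 places and are shown because Eif4e was the 1 factor that also passed with p-values adjusted over genes. They are the plus strand of chr3:138527018-138527267 in GRCm38.p6, from RefSeq, with the E-boxes in capitals. The 250 bases before the first annotated start hold the motif at 0 places.

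Eif4e upstream: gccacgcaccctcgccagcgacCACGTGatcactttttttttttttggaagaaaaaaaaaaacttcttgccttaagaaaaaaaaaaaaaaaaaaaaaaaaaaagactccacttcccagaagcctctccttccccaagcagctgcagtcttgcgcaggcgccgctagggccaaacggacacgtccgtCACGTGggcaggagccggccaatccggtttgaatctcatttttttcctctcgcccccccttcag

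The motif was then looked up in every RefSeq promoter window, from 250 bases before to 50 bases after a gene's start. It was present in 7.15% of all windows and in 10.8% of the genes on the array that had a window. Of the 39 translation factor genes with a window 11 (28.2%) held it. These were 3 of the 6 with a called probe set and a window, and 8 of the 33 without. Eif4e, Eif4a1 and Eif3a were the 3 with a called probe set, and Eef2 and Eif4h were among the 8 without. The number of windows was not matched (Eif5a had 6 and Eif3a 1), and a gene with more has more chances of a match. Whether 3 of 6 differs from 8 of 33 was not tested. A match is a string of letters in a window and no measure of binding. The 30-base windows of 5 genes are given here as examples of the motif. Of the 8 uncalled genes only Eef2 and Eif4h are shown, so the windows do not compare called with uncalled genes. The others were Eef1aknmt, Eef2k, Eif1b, Eif3f, Eif3k and Eif5a. In Eif3a the motif lies after the gene's start, at position 23. Each window reads 5' to 3' on the gene's own strand in GRCm38.p6, with the E-box in capitals. They lie at chr3:138527192-138527221 (plus), chr11:69672595-69672624 (minus), chr19:60790654-60790683 (minus), chr10:81176576-81176605 (plus) and chr5:134639488-134639517 (minus).
Eif4e: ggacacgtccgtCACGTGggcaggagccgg
Eif4a1: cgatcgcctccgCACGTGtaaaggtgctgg
Eif3a: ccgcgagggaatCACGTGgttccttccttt
Eef2: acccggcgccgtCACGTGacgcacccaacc
Eif4h: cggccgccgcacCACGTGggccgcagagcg

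Eif4a1, the helicase of eIF4F, was read by 3 probe sets that went different ways. One read 10.87, 10.53 and 10.75 on the mutant arrays, against 11.57, 11.54 and 11.52 on the wild type arrays. All mutant values were lower, and the difference of -0.83 ± 0.11 passed (log2, SE, adjusted p = 0.019, limma). The brightest read 11.54, 11.09 and 11.27 on the mutant arrays and 11.98, 11.96 and 11.81 on the wild type arrays, without overlap, and its difference of -0.61 missed the threshold (adjusted p = 0.065). The third read 11.23, 10.95 and 11.15 on the mutant arrays and 10.92, 10.86 and 10.97 on the wild type arrays (0.19, adjusted p = 0.38), so its groups overlapped and its mean was the higher in mutant samples. The related helicase gene Eif4a2 differed by -0.30 (adjusted p = 0.16).

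Pabpc1 encodes the protein that coats the poly(A) tail and joins it to eIF4G. The called probe set read 7.73, 8.48 and 8.14 on the mutant arrays, against 9.06, 9.03 and 9.07 on the wild type arrays. The 3 mutant values were scattered but all lay below the wild type ones, at -0.94 ± 0.18 (log2, SE, adjusted p = 0.049, limma). The brightest Pabpc1 probe set read 12.89, 12.74 and 12.68 on the mutant arrays and 12.88, 12.87 and 12.90 on the wild type arrays. There mutant replicate 1 lay among the wild type arrays, and the difference of -0.12 was not called (adjusted p = 0.58). It took the value 0.02 when quantile normalisation was repeated without control probe sets.

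The other cap factors divided. Eif4e2, a cap-binding relative of Eif4e that represses translation, had 4 probe sets, of which the one with the highest mean differed by -0.40 (adjusted p = 0.094) and the next by 0.31 (adjusted p = 0.21), both without overlap between the groups. Eif4e3 read 7.65, 7.12 and 6.36 on the mutant arrays and 6.91, 6.86 and 6.81 on the wild type arrays, so that the mutant values spread to both sides of the wild type ones. The gene of the repressor 4E-BP2, Eif4ebp2, read 8.90, 8.97 and 9.28 on the mutant arrays, against 8.36, 8.49 and 8.49 on the wild type arrays. Its mutant values were all higher, but the difference of 0.60 ± 0.12 missed the threshold (log2, SE, adjusted p = 0.055, limma), and 3 of its 4 dimmer probe sets were lower in mutant samples (-0.36, -0.22 and -0.26). The gene of 4E-BP1, Eif4ebp1, differed by 0.32 on its brightest probe set (adjusted p = 0.32). Its dimmer probe sets differed by -0.04 and -0.13 (adjusted p = 0.93 and 0.65, limma). Eif4g3, a scaffold subunit, read 7.68, 7.58 and 7.39 on the mutant arrays and 7.11, 7.23 and 7.12 on the wild type arrays (0.40, adjusted p = 0.11), again higher without overlap and without a call. The remaining 4 genes were the helicase helpers Eif4b and Eif4h, the scaffold relative Eif4g2 and the eIF4E transporter gene Eif4enif1. By their brightest probe sets they lay between -0.05 and 0.10. The dimmer probe sets of Eif4b differed by -0.22 and -0.33 (adjusted p = 0.36 and 0.21, limma), the latter lower without overlap. Over the 13 genes 7 means were lower and 6 higher, and the median was -0.03. By brightest probe sets 1 of the 13 was called lower, beside 0.654% of all genes. The scaffold gene Eif4g1 and Eif4ebp3 were not analysed here.

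**Figure D2:**
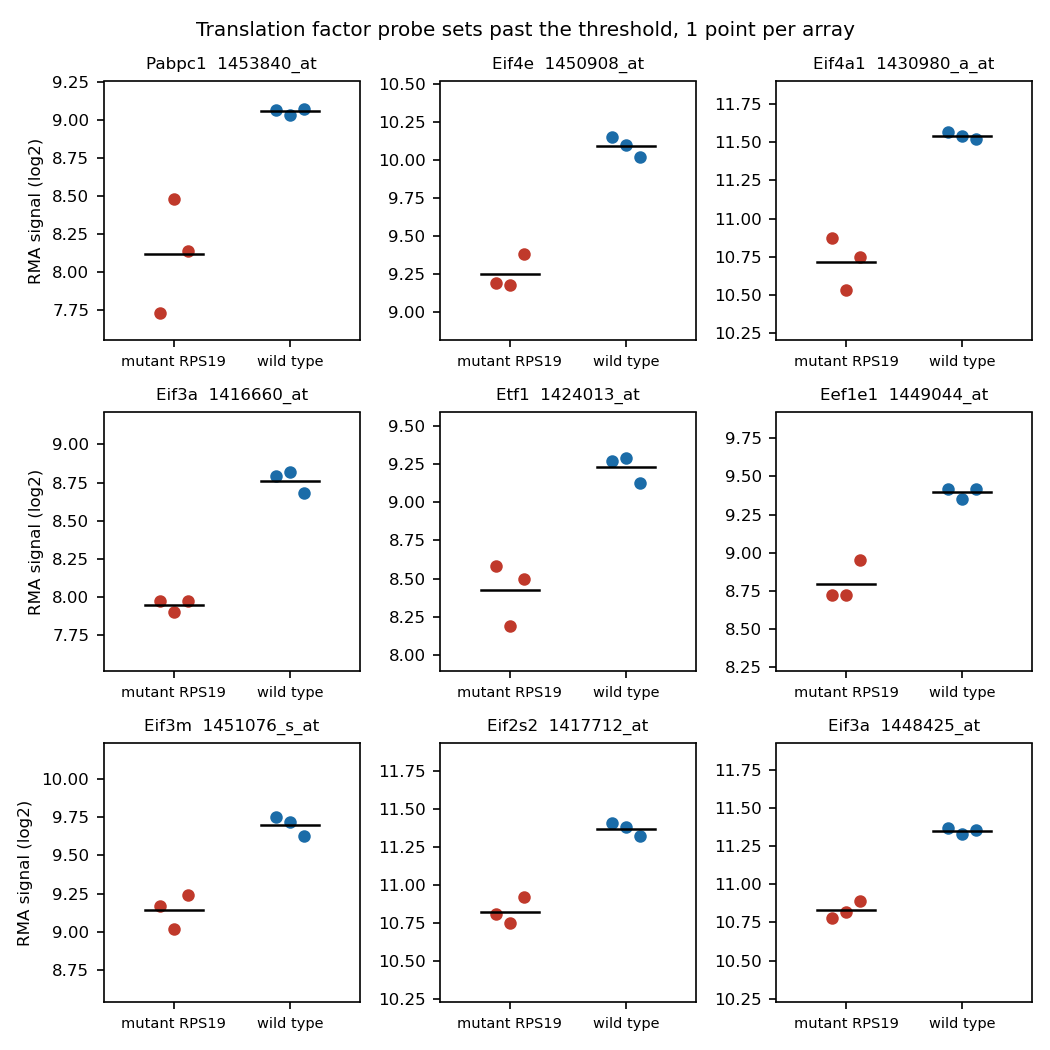
Log2 signal (vertical axes) on each array for the 9 translation factor probe sets called by limma, with the 3 mutant RPS19 arrays left of the 3 wild type arrays in each panel and bars at the group means. All mutant points lie below all wild type points in each panel, and in the Pabpc1 panel the mutant points run from 7.73 to 8.48.

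The eIF3 complex binds the small subunit and bridges it to eIF4F. Of 11 subunits with a single-symbol probe set, 2 were called lower by their brightest probe set, beside 0.654% of all genes. Means in mutant samples were lower for 8 and higher for 3, with a median difference of -0.16. That median was -0.0776 without mutant replicate 2, -0.0837 with repeated quantile normalisation and -0.0308 with a gene's probe sets averaged. Eif3a, its largest scaffold subunit, was called on 2 probe sets. One read 7.97, 7.90 and 7.97 on the mutant arrays, against 8.79, 8.82 and 8.68 on the wild type arrays, and the brightest read 10.78, 10.82 and 10.89 on the mutant arrays, against 11.37, 11.33 and 11.36 on the wild type arrays. Within each group the values lay close together, and on both probe sets all mutant values were below all wild type values. The differences were -0.82 ± 0.090 and -0.52 ± 0.087 (log2, SE, adjusted p = 0.0088 and 0.033, limma). The other 2 Eif3a probe sets also had lower means in mutant samples, at -0.16 and -0.34 (adjusted p = 0.36 and 0.25), so all 4 had the same sign.

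Eif3m, another core subunit, read 9.17, 9.02 and 9.24 on the mutant arrays, against 9.75, 9.72 and 9.63 on the wild type arrays. The groups did not overlap, with a difference of -0.56 ± 0.10 (log2, SE, adjusted p = 0.039, limma). Its other probe set was dim on all arrays, at 2.45 to 2.59 in mutant and 2.15 to 2.64 in wild type samples, and differed by 0.19 (adjusted p = 0.53). Eif3d, which can itself bind caps, read 10.01, 10.03 and 10.10 on the mutant arrays and 10.59, 10.51 and 10.35 on the wild type arrays. It too was lower without overlap, but at -0.44 ± 0.099 it missed the threshold (adjusted p = 0.071). The bright probe sets of Eif3e lay at -0.18, -0.29 and -0.32, with adjusted p of 0.20 to 0.39. Eif3h differed by -0.22 (adjusted p = 0.25) on its bright probe set, and its 2 dim ones, at 2.80 or less on every array, differed by 0.23 and 0.17. Eif3b, Eif3c, Eif3i, Eif3k and Eif3l lay between -0.16 and 0.14 by their brightest probe sets. Eif3f, the subunit with the highest difference, read 11.54, 11.44 and 11.54 on the mutant arrays, against 11.29, 11.30 and 11.24 on the wild type arrays. Its mutant values were all higher (0.23, adjusted p = 0.22), and it was not called. The subunit means of this complex thus lay on both sides of 0, with no subunit called higher. Whether the subunits differ in direction was not tested. Eif3g was not analysed here.

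The eIF2 complex carries the initiator tRNA, and eIF2B recharges it with GTP between rounds. Eif2s2, the beta subunit of eIF2, read 10.81, 10.75 and 10.92 on the mutant arrays, against 11.41, 11.38 and 11.32 on the wild type arrays for its brightest probe set. The mutant values were all lower, at -0.54 ± 0.093 (log2, SE, adjusted p = 0.035, limma), and a second probe set had a difference of -0.49 without a call (adjusted p = 0.091). The other 4 of its 6 probe sets lay between -0.14 and 0.17 (adjusted p of 0.47 to 0.94). Of the eIF2B subunits, Eif2b1 read 8.04, 7.62 and 8.23 on the mutant arrays and 8.55, 8.56 and 8.39 on the wild type arrays. Its groups did not overlap, and its difference of -0.54 ± 0.16 was not called (adjusted p = 0.14), with a mutant SD of 0.31 beside 0.095 in wild type samples. Eif2b4 and the catalytic Eif2b5 differed by 0.09 and 0.21 (adjusted p = 0.69 and 0.30). Eif2b2 differed by 0.23 on its brightest probe set and by -0.33 and -0.42 on the other 2, all 3 without overlap between the groups. The median over the 5 genes was 0.09 by brightest probe sets and -0.17 with a gene's probe sets averaged, so its sign rests on which probe set speaks for a gene. Eif2s1 and Eif2b3 were not analysed here.

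The factors of start codon choice and subunit joining held 0 called genes of 7 by limma, beside 1.52% of all genes, too few genes to read a count of 0 against that share. At an unadjusted p under 0.05, 1 gene was lower and 0 were higher, beside 8.34% and 9.17% of all genes. Their median was 0.11. Eif1ax, the X-linked factor that opens the small subunit for scanning, read 9.99, 9.96 and 9.99 on the mutant arrays and 9.92, 9.96 and 9.93 on the wild type arrays. These groups nearly coincided, with a difference of 0.04 and a 95% confidence interval of -0.15 to 0.24. Eif5, which triggers GTP hydrolysis by eIF2, differed by 0.11 on its brightest probe set. Its dimmest probe sets differed by -0.09 and -0.01 (adjusted p = 0.69 and 0.97, limma). A second Eif5 probe set read 10.05, 10.02 and 10.09 on the mutant arrays, against 9.80, 9.79 and 9.77 on the wild type arrays, higher without overlap and not called (0.26, adjusted p = 0.16). Eif5b, the GTPase of subunit joining, differed by 0.17 (adjusted p = 0.47), and Eif2d, which can deliver tRNA without GTP, by 0.26 (adjusted p = 0.28). Eif6 keeps free large subunits from joining small ones. It read 9.26, 9.03 and 9.37 on the mutant arrays and 9.59, 9.58 and 9.45 on the wild type arrays, lower without overlap and not called (-0.32, adjusted p = 0.20). Eif1a had the widest mutant spread of the 7, from 7.47 to 8.23, on both sides of the wild type values of 7.83 to 7.99. Eif1b differed by 0.11, and Eif1 was not analysed here.

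Elongation has its own delivery and translocation factors. Eef1a1, which brings aminoacyl-tRNA to the ribosome and is among the most abundant mRNAs of a cell, read 13.35, 13.19 and 13.16 on the mutant arrays, against 13.47, 13.50 and 13.48 on the wild type arrays. All mutant values were lower, and the difference of -0.25 was not called (adjusted p = 0.21). Its tissue-restricted relative Eef1a2 differed by -0.27 (adjusted p = 0.19). Of the exchange factor that reloads eEF1A, Eef1d differed by -0.33 on its brightest probe set (adjusted p = 0.13) and by 0.17 on another, whereas Eef1b2 differed by 0.07 (adjusted p = 0.70). The translocase gene Eef2 read 11.52, 11.52 and 11.47 on the mutant arrays, against 11.34, 11.37 and 11.18 on the wild type arrays. Its mutant values were all higher, without a call (0.21, adjusted p = 0.29), and Eef2k, the kinase that inhibits eEF2, differed by 0.12 (adjusted p = 0.67). The delivery and translocation genes therefore lay on opposite sides of 0, neither past the threshold, and the difference between them was not tested.

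The called gene of this group was Eef1e1, which despite its symbol encodes a scaffold protein of the multi-tRNA synthetase complex rather than a factor that acts on the ribosome. It read 8.72, 8.72 and 8.95 on the mutant arrays, against 9.42, 9.35 and 9.42 on the wild type arrays. The mutant values were all lower, at -0.60 ± 0.10 (log2, SE, adjusted p = 0.035, limma). Eif5a, which relieves ribosomes stalled on prolines, was bright and differed by -0.14 (adjusted p = 0.51), and its dimmer probe set by -0.55 without overlap (adjusted p = 0.069). Eefsec, which delivers selenocysteine tRNA, differed by -0.0055, with a 95% confidence interval of -0.29 to 0.28. The methyltransferase genes of eEF1A and eEF2, Eef1akmt1, Eef1aknmt and Eef2kmt, differed by 0.31, -0.05 and 0.39 (adjusted p = 0.25, 0.85 and 0.15). The dimmer probe sets of Eef1akmt1 lay between -0.11 and 0.08 (adjusted p of 0.73 to 0.76, limma). Over the 12 genes 7 means were lower and 5 higher, and 1 gene was called lower, beside 0.654% of all genes. The median was -0.03, and it took the other sign without mutant replicate 2 (0.0258) and without wild type replicate 1 (0.0253).

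All 3 genes of release and recycling had lower means in mutant samples, and 1 was called lower, beside 0.654% of all genes. On their brightest probe sets all mutant values lay below all wild type values in all 3, as in 12.7% of all genes. Etf1, which encodes the release factor eRF1 that reads stop codons, read 8.58, 8.19 and 8.50 on the mutant arrays, against 9.27, 9.29 and 9.13 on the wild type arrays. Mutant replicate 2 was the lowest, and the difference was -0.81 ± 0.13 (log2, SE, adjusted p = 0.028, limma). Its 4 other probe sets differed by -0.38, 0.06, 0.04 and 0.52 (adjusted p of 0.15 to 0.95), and the gene mean by -0.12 (adjusted p = 0.72). The called level of Etf1 thus belongs to 1 of 5 probe sets. Gspt1, the GTPase eRF3 that works with eRF1, read 9.24, 9.02 and 9.26 on the mutant arrays, against 9.61, 9.63 and 9.61 on the wild type arrays. The wild type values nearly coincided and the mutant ones were all lower, at -0.44 ± 0.10 (adjusted p = 0.073). A second Gspt1 probe set differed by -0.51 and the dimmest by -0.07 (adjusted p = 0.066 and 0.8, limma). Abce1, the ATPase that splits ribosomes, read 8.98, 8.80 and 9.03 on the mutant arrays, against 9.30, 9.31 and 9.34 on the wild type arrays, lower without overlap at -0.38 ± 0.098 (adjusted p = 0.094). Its second probe set differed by -0.36 (adjusted p = 0.22). The median over the 3 genes was -0.44, and it lay between -0.51 and -0.34 over the alternative settings.

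Probe sets of 1 gene often disagreed. Of the 30 translation factor genes with more than 1 probe set, 22 (73.3%) had differences of both signs, where 2615 of all 4956 such genes (52.8%) did. Their number of probe sets was not matched, and a gene with more has more chances to show both signs. In 6 genes (Etf1, Eif4ebp2, Eif4e2, Eif2b2, Eef1d and Eif3h) one probe set lay wholly above and another wholly below the wild type values. Such genes made up 4.58% of all 4956 with more than 1 probe set. Probe sets whose name ends in x_at, made of probes that can bind several transcripts, had a median difference of 0.10 over 17 members and of 0.03 in the whole table. Those ending in plain at had -0.09 over 70 members and -0.02 in the whole table. Of the 8 genes with a called probe set 7 had more than 1, and in Eif3a alone a second one passed.

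**Figure D3:**
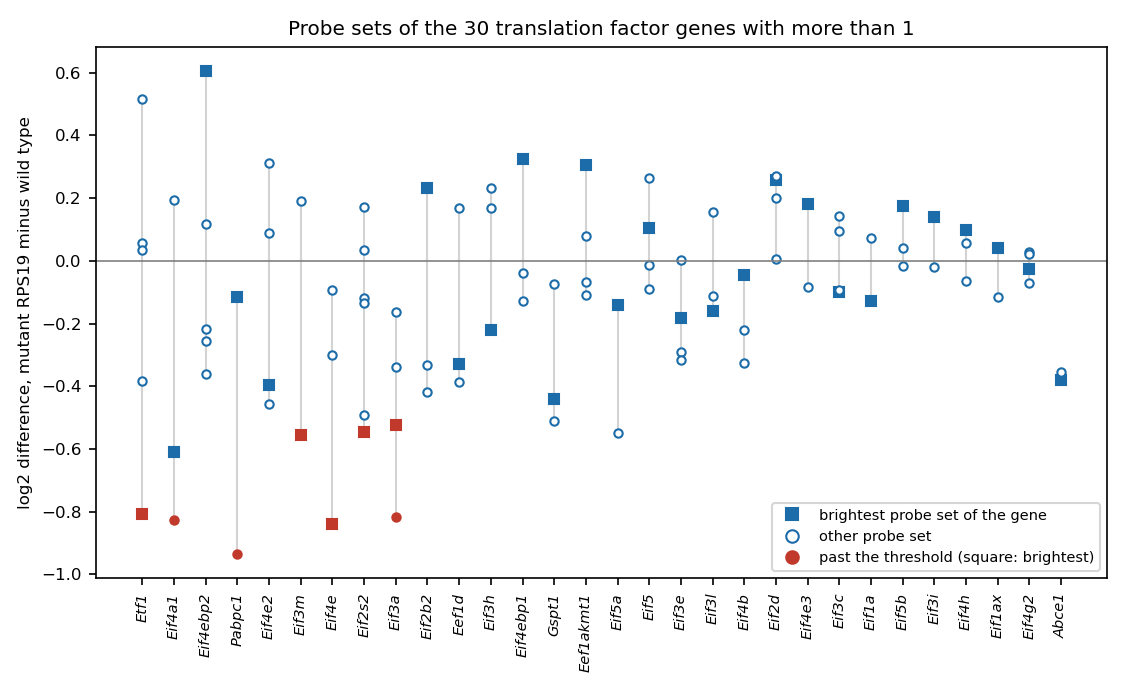
Log2 difference (mutant RPS19 minus wild type) of every probe set of the 30 translation factor genes that have more than 1, with squares for the brightest probe set of a gene and red for called ones. The probe sets of Etf1 run from -0.81 to 0.52 and those of Eif4ebp2 from -0.36 to 0.60, whereas the 4 of Eif3a all lie below 0.

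The mutant arrays varied more than the wild type arrays, as they did across all genes. The mutant SD exceeded the wild type SD in 40 of 51 factor genes (78.4%), beside 77.7% of all genes. Over the factor genes the SD of the log2 differences between 2 arrays was 0.21 to 0.28 within the mutant group, 0.35 to 0.38 between the groups and 0.062 to 0.12 within the wild type group. Over all genes it was 0.34 to 0.51 within the mutant group, 0.36 to 0.42 between the groups and 0.14 to 0.18 within the wild type group. For the factor genes every pair across the groups was thus farther apart than any pair within a group. Over all genes the pairs within the mutant group reached beyond those across groups. The sets of genes were not matched for signal, so this contrast cannot be read as particular to the factors. The median difference of the factor genes from the wild type mean was 0.0028 on mutant replicate 1, -0.15 on replicate 2 and -0.10 on replicate 3, beside -0.03, -0.01 and 0.02 for all genes. The release and recycling genes were the lowest group on each mutant array, at -0.37, -0.60 and -0.36.

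**Figure D4:**
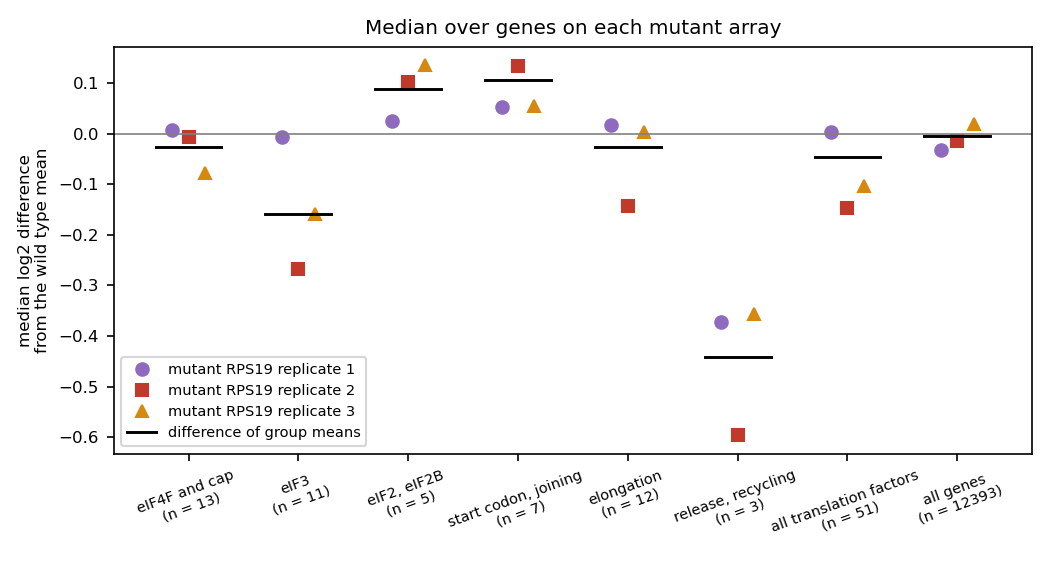
Median log2 difference from the wild type mean (vertical axis) on each of the 3 mutant RPS19 arrays for the 6 roles, for all 51 translation factor genes and for all 12393 genes, with a bar at the median difference of the group means. The 3 release and recycling genes lie between -0.60 and -0.36, and all factors together between -0.15 and 0.0028.

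Of 36 measured genes that act on or beside these factors 0 were called by limma, and with 1.52% of all genes called, lists of this size say little by a count of 0. At an unadjusted p under 0.05, 8.34% of all genes were lower and 9.17% higher. Of 14 measured poly(A)-binding partners, Mnk kinases and translational repressors 0 passed (1 lower and 0 higher at an unadjusted p under 0.05), with a median of 0.01. Among them the repressor Gigyf2 differed by -0.29 (adjusted p = 0.23) and Cyfip2 by 0.36 (adjusted p = 0.27). Of 11 genes of non-canonical initiation and ribosome rescue 0 passed (1 lower and 0 higher unadjusted), with a median of -0.02, and the ATPase gene Abcf3 and the reinitiation factor gene Denr differed by -0.29 and -0.28 (adjusted p = 0.22 and 0.34). Of 6 genes that modify eIF5A or eEF2 0 passed (0 unadjusted in either direction), with a median of -0.06, and the diphthamide genes Dph5 and Dph7 differed by -0.21 and -0.30 (adjusted p = 0.29 for both). Of 5 mitochondrial translation factors 0 passed (0 unadjusted), with a median of 0.05, and the elongation factor gene Gfm2 differed by -0.27 (adjusted p = 0.39) and the initiation factor gene Mtif2 by 0.12 (adjusted p = 0.68).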

How the data were processed

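Total RNA (5 micrograms per labelling, per the labels) was read on 6 Affymetrix arrays. The deposited values are log2 signals, made by the authors with GCOS and RMA in Affymetrix Expression Console, per the submitters' processing notes. RMA corrects background, quantile normalises and summarises probes, so a shift shared by most genes would be removed. The sources used here give neither versions nor the set of arrays that was normalised as one. Of 22690 probe sets 64 were controls and were left out. A platform annotation gave 1 symbol for 20380, several for 691 and none for 1555. All 118 members matched RefSeq by Entrez identifier.

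The main fit was limma's lmFit and eBayes (version 3.58.1, R 4.3.3), two-sided and without covariates, over 22626 probe sets. P-values were adjusted by Benjamini-Hochberg over all of them and called under 0.05. A gene was represented by its single-symbol probe set with the highest mean over 6 arrays. Levels of different probe sets were set against each other only to choose that probe set and to split probe sets at the median signal. On simulated data with 22626 probe sets and 200 changed, 65% were recovered at a log2 change of 1 and 89% at 2, with 7 false calls. The simulation used the same SD in both groups, whereas the mutant arrays varied more. Its changes were larger than any among the called factor probe sets, so these rates do not describe them. Array control values used an exact permutation test. Promoter windows came from RefSeq (GRCm38.p6), and 39 of 51 genes had one. Tables and plots were made with pandas 2.3.3 and matplotlib 3.10.9 (Python 3.11.15). With 3 arrays a group, precision is limited by their number.

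The text names every called member, a fixed set of factors and, of 4 lists of neighbouring genes, called genes and up to 2 others by lowest p. Further members are named to account for all 51. The members and lists were chosen with earlier results of these data known. Replicate numbers were not used to pair the samples in the main fit. Deviations from the group means correlated across probe sets at 0.051, 0.028 and 0.055 for same-numbered arrays. For differently numbered arrays the correlations ran from -0.078 to 0.023. Values this small, from 3 arrays a group, cannot tell whether the samples were paired. Alternatives covered the variance prior, array weights, normalisation, a filter on dim probe sets, the unit of the fit, a replicate block, the threshold and leaving out each array.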

Additional observations from a re-analysis of the deposited data

How the results depend on the processing

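In the settings run, all 9 called probe sets kept lower values in mutant samples, but how many passed depended on the setting. Of 9 probe sets and 6 genes (brightest probe set) called lower, array weights gave 29 and 14, an adjusted p under 0.10 gave 18 and 11, no shared variance estimate gave 2 and 1, and the replicate block gave 0 and 0 (15 genes lower and 4 higher unadjusted). The share of all probe sets called lower moved too, to 6.1%, 3.5%, 0.265% and 0.283% in these settings, against 1.39%. Same-numbered samples share only that number in the labels, so whether the block is a paired test is not known. The fit with 1 probe set per gene called 1 gene lower and the mean of a gene's probe sets 0. Called higher were 0 probe sets and 0 genes, against 1 each with the trend and robust prior, with bright probe sets only and at an adjusted p under 0.10, and 2 each with array weights. Of all probe sets 0.986%, 2.32%, 2.62% and 5.68% were called higher in these 4 settings, against 0.941%. Leaving out 1 array gave 0 to 18 probe sets and 0 to 11 genes lower, and 0 to 1 of each higher. The lower counts were 0 without any single wild type array, 18 and 11 without mutant replicate 1, 4 and 1 without mutant replicate 2, and 9 and 6 without mutant replicate 3. Of all probe sets 0.106% to 0.146%, 5.27%, 0.548% and 1.95% were then lower, and the 1 higher call came without mutant replicate 1, where 5.98% of all were higher. The cause of these changes was not tested.

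The eIF4F median moved to 0.0360 with array weights and to 0.0360 with repeated quantile normalisation, and ran from -0.121 to 0.0473 with 1 array left out. The eIF2 and eIF2B median moved to -0.17 with probe sets averaged and ran from 0.0254 to 0.120, and the start codon median ran from 0.0529 to 0.135. With 1 array left out the eIF3 median ran from -0.218 to -0.0776, that of elongation from -0.0702 to 0.0258 and that of all factors from -0.121 to -0.0205. Signs also turned for genes whose brightest probe set was not called. With probe sets averaged these were Eif3h (0.0594), Eif1ax (-0.0361), Eif2b2 (-0.173), Eif4ebp2 (-0.0227) and Eif3c (0.0111). With repeated quantile normalisation they were Pabpc1 (0.0203), Eif3k (0.0139) and Eif4g2 (0.0819), and with array weights Eif3b (-0.0043) and Eif4g2 (0.0360). With 1 array left out, values ran from -0.0623 to 0.0955 for Eefsec, -0.121 to 0.524 for Eif4e3, -0.125 to 0.00402 for Eef1aknmt, -0.360 to 0.0202 for Eif1a, -0.168 to 0.0825 for Eif4b, -0.0067 to 0.0731 for Eif3b, -0.0493 to 0.210 for Eif4enif1, -0.0877 to 0.0089 for Eif3k and -0.116 to 0.101 for Eif4g2. Repeated quantile normalisation moved the median of all probe sets only to 0.0008, against -0.0132.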

Other observations

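The X-linked eIF2 gamma gene Eif2s3x, which the choice of members left out, read 7.98, 7.83 and 7.45 on the mutant arrays, against 8.58, 8.52 and 8.56 on the wild type arrays for 1 of its 3 probe sets. Its mutant values were all lower (-0.80 ± 0.14, log2, SE, adjusted p = 0.039, limma). The other 2 probe sets differed by -0.43 and -0.28 (adjusted p = 0.11 and 0.30). Mutant replicate 3, the array that read 8.34 for Eif2s3y, was the lowest on all 3. Its part in the difference was not tested.

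Factors whose probe sets carry several symbols were measured but not counted. A probe set shared by Eif3j1 and Eif3j2, a loosely bound part of eIF3, read 9.33, 9.41 and 9.41 on the mutant arrays and 9.69, 9.67 and 9.70 on the wild type arrays, lower without overlap and not called (-0.30, adjusted p = 0.12). The other probe sets shared by Eif3j1 and Eif3j2 differed by -0.16 and -0.09 (adjusted p = 0.57 and 0.64, limma). Probe sets that name the exchange factor gene Eef1g and the helicase gene Eif4a3 beside a predicted gene differed by -0.13 and -0.17 (adjusted p = 0.50 and 0.44).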
